A study of Homo sapiens with 18 samples.

Results

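Lysozyme and 9 other proteins stored in the granules of myeloid cells were followed at the RNA level in THP-1, a human monocytic leukaemia line that can be grown and transduced in culture. The 10 genes are LYZ, the serprocidin genes ELANE, PRTN3, AZU1 and CTSG, MPO, the membrane protein genes CEACAM6 and CEACAM8, and the eosinophil granule genes RNASE2 and PRG2, among 57500 genes in the deposited count tables. They were picked by gene symbol, with earlier results of these libraries in view, so the values below describe them and their calls are no independent evidence. All 10 were found, each as 1 gene at its GENCODE 29 position. Stable lines made with lentivirus expressed a short hairpin RNA with no target (shNT), a hairpin that targets NR4A2 (shNR4A2) or a hairpin that targets NR4A3 (shNR4A3). Both targets are orphan nuclear receptors, and the study asked what they do in monocytes at rest and after a bacterial stimulus. Every line, shNT included, was kept under puromycin, and was rested for 2 h in buffered DMEM before it was either left unstimulated (control) or given lipopolysaccharide (LPS) at 2.5 μg/ml for 2 h. Each of the 6 groups was sequenced as 3 polyadenylated RNA libraries, which the study describes as independent experiments. Each hairpin was present in 1 stable line, so an effect of the target and a difference between lines cannot be told apart. The total count per library ran from 16171161 to 23929138, and the 10 genes took between 0.315% and 0.621% of them.

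Promyelocytes, the precursors of neutrophils, make the primary (azurophil) granule proteins in a short window of differentiation and package them with the proteoglycan serglycin. Elastase, proteinase 3 and cathepsin G are serine proteases activated by cathepsin C, azurocidin is their inactive relative, and myeloperoxidase makes hypochlorous acid. Lysozyme, which cuts the peptidoglycan of bacterial walls, is in contrast kept on and secreted by mature monocytes and macrophages. NR4A receptors bind DNA as monomers at the NBRE, a nuclear receptor half-site with 2 adenines in front, and C/EBP, PU.1, MYB and RUNX factors are known regulators of granule genes.

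Each target was lower in the line made against it. NR4A2 was at 4.16, 2.83 and 4.08 TPM (the count divided by the gene's exon length and scaled to 1 common sum) in the 3 shNT control libraries and at 1.82, 1.63 and 2.41 in shNR4A2 control. With LPS it was at 62.7 ± 11.7 TPM (SD, n = 3) in shNT and 21.2 ± 6.78 in shNR4A2. NR4A3 was at 0.587 ± 0.0940 TPM in shNT control and 0.0990 ± 0.0636 in shNR4A3 control, which is a total of 58 and 9 counts. With LPS it was at 31.7 ± 0.708 TPM in shNT and 17.3 ± 0.807 in shNR4A3. In each of these pairs the groups did not overlap, and the log2 fold changes were -0.91 ± 0.23 and -1.52 ± 0.19 for NR4A2 and -2.47 ± 0.49 and -0.82 ± 0.08 for NR4A3, all past the limit described below.

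The granule genes were expressed at very different levels. ELANE had the highest mean over all 18 libraries, 3823 TPM, which placed it at rank 21 of all genes. AZU1 followed at 2682 TPM, CTSG at 2574, PRTN3 at 1878, RNASE2 at 1203 and LYZ at 515. CEACAM6 was far lower at 20.3 TPM, and MPO, the defining peroxidase of azurophil granules, lay at 4.40. PRG2 averaged 1.17 TPM on 218 counts in all libraries together. CEACAM8 had 16 counts in all, with 9 of 18 libraries at 0, where a floor of 3 counts corresponds to between 0.181 and 0.266 TPM. It never passed the filter on low counts and is given no fold change.

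**Figure D1:**
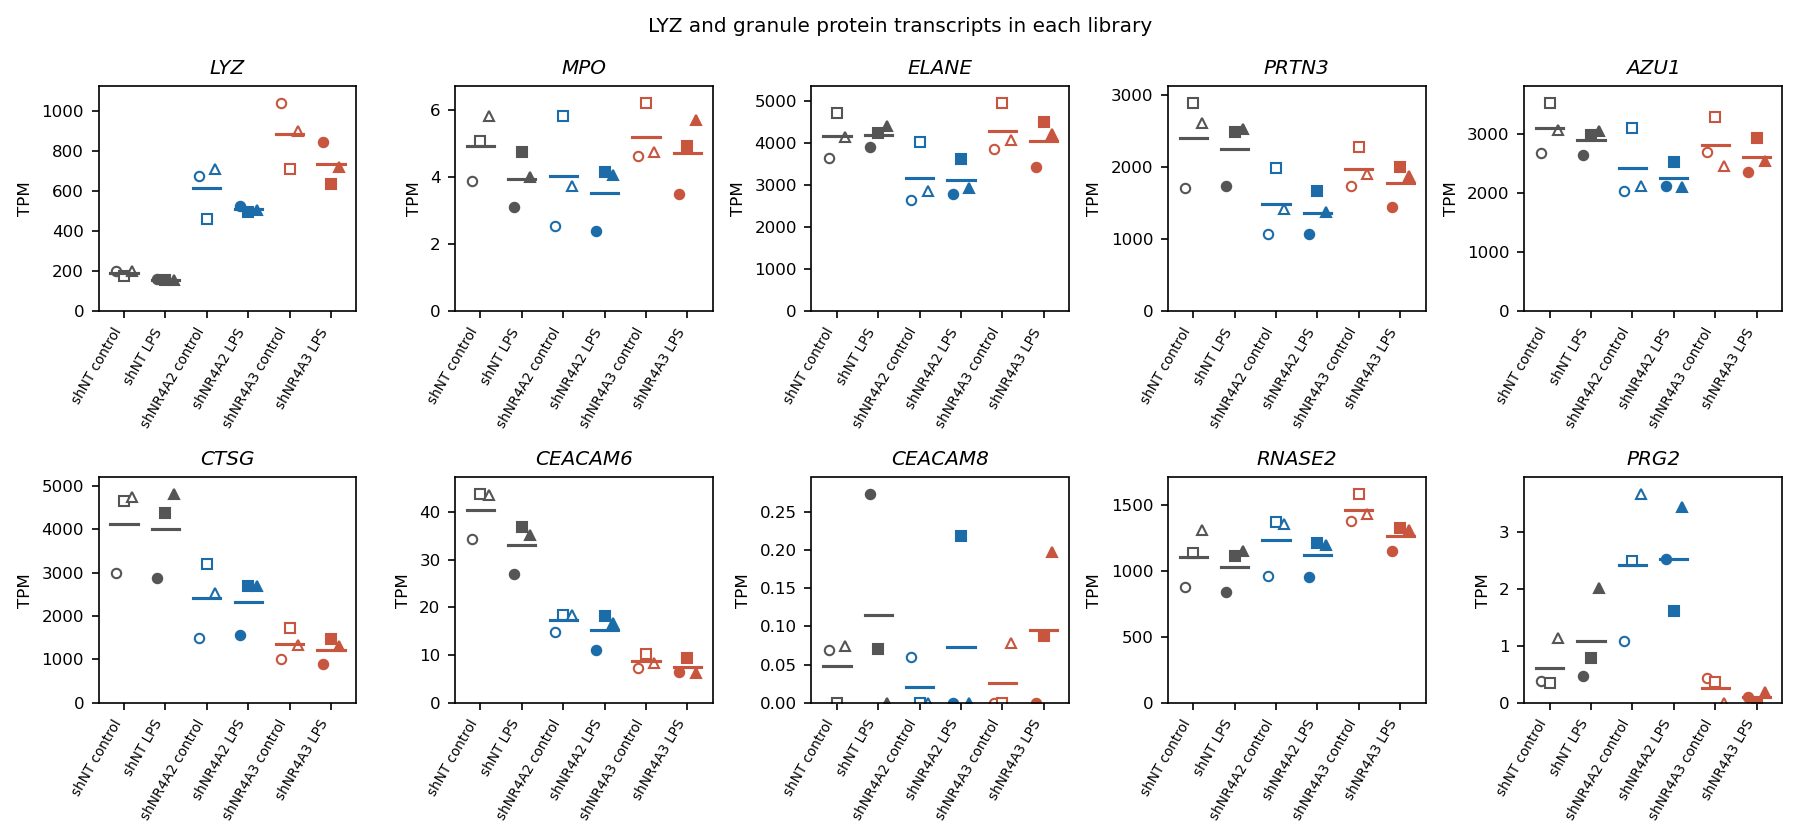
TPM of each of the 10 genes (vertical axes, linear, from 0) in the 6 groups, with a circle, square and triangle for replicates 1, 2 and 3 and a line at the group mean; open symbols are control and filled symbols LPS. LYZ separates shNT from both knockdown lines upwards, CEACAM6 steps down from shNT to shNR4A2 to shNR4A3, CTSG in shNR4A3 lies below shNT, and CEACAM8 stays below 0.274 TPM.

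LYZ lies on the plus strand of chromosome 12 (chr12:69348341-69354234, GRCh38). Its transcript was at 198, 177 and 202 TPM in the 3 shNT control libraries and at 675, 462 and 709 TPM in shNR4A2 control. In shNR4A3 control it reached 1040, 708 and 901 TPM. Both knockdown lines lay above every shNT library, with no overlap. The log2 fold change against shNT was 1.68 ± 0.14 (SE) in shNR4A2, a 3.20-fold higher level, and 2.25 ± 0.14 in shNR4A3, a 4.77-fold higher level. With LPS, LYZ was at 159, 155 and 156 TPM in shNT, at 522, 497 and 507 in shNR4A2 and at 844, 634 and 719 in shNR4A3. The log2 fold changes were then 1.76 ± 0.09 and 2.29 ± 0.13. LYZ passed the limit of the test over all genes (edgeR quasi-likelihood, adjusted p under 0.05) in all 4 comparisons with shNT, and did so under DESeq2, with RLE size factors, without the count filter, with a replicate block, with all 18 libraries in 1 fit and with each library left out.

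From lowest to highest mean, the order for LYZ was shNT LPS, shNT control, shNR4A2 LPS, shNR4A2 control, shNR4A3 LPS and shNR4A3 control. Neighbours in this order overlapped from shNR4A2 LPS upwards. LYZ was lower in shNR4A2 than in shNR4A3 by a log2 of -0.58 ± 0.17 without LPS and -0.53 ± 0.14 with LPS. This difference did not pass the limit with the libraries unpaired. It passed with the replicate number as a block, under DESeq2, without the count filter and with all 18 libraries in 1 fit. Over the left-out libraries it ran from -0.74 to -0.42 and from -0.66 to -0.39, and it passed when shNR4A3 replicate 2 of that state was left out. Replicate 2 was the lowest LYZ library in 6 of 6 groups.

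Some monocyte markers were also higher in the knockdown lines. Of 10 monocyte markers, 9 were tested in shNR4A2 against shNT without LPS. There CD14, the LPS co-receptor, rose by a log2 of 1.15 ± 0.25 (edgeR adjusted p = 0.0188) and CSF1R, the receptor for M-CSF, by 0.77 ± 0.13 (adjusted p = 0.00495). In shNR4A3 control CSF1R rose by 1.02 ± 0.12 (edgeR adjusted p = 0.000205), CD14 by 0.87 ± 0.25 (adjusted p = 0.0489) and ITGAM, the αM integrin chain, by 0.80 ± 0.18 (adjusted p = 0.0146). With LPS, CSF1R rose in both lines, by 0.87 ± 0.15 in shNR4A2 (edgeR adjusted p = 0.0115) and 1.10 ± 0.13 in shNR4A3 (adjusted p = 0.00121), and ITGAM in shNR4A3, by 0.82 ± 0.17 (adjusted p = 0.0225). Of these calls, those of CSF1R in both control comparisons and in shNR4A3 with LPS held with each library left out. CSF1R in shNR4A2 with LPS did not pass without shNT LPS replicate 2 (edgeR adjusted p = 0.0548). The calls of CD14 and ITGAM ended without any of 3 or 4 libraries each, with adjusted p up to 0.193 for CD14 in shNR4A3 control (log2 of 0.58, without shNR4A3 control replicate 1) and 0.0959 for ITGAM. With all 18 libraries in 1 fit CD14 passed in neither control comparison, and under DESeq2 neither CD14 nor ITGAM passed in shNR4A3 control. DESeq2 called 4, 1, 2 and 3 monocyte markers in shNR4A2 control, shNR4A3 control, shNR4A2 LPS and shNR4A3 LPS, where edgeR called 3 of 9, 3 of 9, 1 of 9 and 2 of 8 tested, beside 6.45%, 7.23%, 6.96% and 6.45% of all genes by edgeR. The shares of all genes by DESeq2 are not given here, so nothing is read from its counts. With the replicate block 5 rose in shNR4A2 control and 5 in shNR4A2 with LPS, and in shNR4A3 with LPS 4 rose and FCGR1A, an Fc receptor gene, fell, where 23.6%, 28.1% and 21.8% of all genes were past the limit. In shNR4A3 control 4 rose with the block, where 14.8% of all genes were past the limit. CD14, CSF1R and ITGAM were among the markers that rose with the block in each of the 4 comparisons. Unpaired, no monocyte marker fell in the 4 comparisons by edgeR. The summed level of the 10 markers was 464 ± 38.8 TPM in shNT control, 612 ± 45.0 in shNR4A2 control and 589 ± 46.6 in shNR4A3 control, and 469 ± 48.8, 605 ± 81.0 and 577 ± 67.3 TPM with LPS. CD4 was the most abundant of them, at 170 TPM in shNT control, and MRC1 stayed below 1 TPM in all libraries. Their part in the LYZ values was not tested. In bulk RNA a change in the share of such cells and a change in RNA per cell cannot be told apart.

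The genes whose log2 CPM (counts scaled by library size, with a prior count of 2) followed LYZ most closely over the 18 libraries were TRPS1 (Pearson r = 0.97), MS4A4A (0.97), EPB41L3 (0.97), ADA2 (0.97) and VCAN (0.96), out of 4641 genes compared. MS4A4A is a macrophage surface protein, ADA2 a secreted adenosine deaminase and VCAN the proteoglycan versican. VCAN went from 7.28 TPM in shNT control to 24.3 in shNR4A2 and 27.1 in shNR4A3 control. Among the granule genes, CEACAM6 ran opposite to LYZ with r = -0.95 and CTSG with r = -0.89. The libraries share the 6 groups, so these coefficients are given as a description.

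None of the 8 other lysozyme family genes on the list passed the count filter in any comparison. LYG1 had group means from 0.424 to 1.65 TPM and LYG2 from 0.564 to 1.17 TPM.

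CTSG and CEACAM6 lay on the other side of shNT. CTSG encodes cathepsin G, a chymotrypsin-like protease of azurophil granules, and lies on the minus strand of chromosome 14 (chr14:24573522-24576260, GRCh38). It was at 2993, 4652 and 4734 TPM in shNT control, at 1494, 3197 and 2521 in shNR4A2 control and at 1012, 1727 and 1341 in shNR4A3 control. All shNR4A3 libraries lay below all shNT libraries, while shNR4A2 and shNT overlapped. The log2 fold change was -1.56 ± 0.18 in shNR4A3, or 0.339 of the shNT level, and past the limit. In shNR4A2 it was -0.77 ± 0.24, which did not pass the limit unpaired and passed with the replicate block or without the count filter. With LPS, CTSG was at 2869, 4365 and 4804 TPM in shNT, at 1558, 2688 and 2693 in shNR4A2 and at 899, 1479 and 1301 in shNR4A3. Both knockdown lines lay below every shNT library there. The log2 fold changes were -0.75 ± 0.22 in shNR4A2, again past the limit only with the block, without the count filter or under DESeq2, and -1.66 ± 0.20 in shNR4A3, past the limit under each of these settings and with each library left out. CTSG was higher in shNR4A2 than in shNR4A3 by a log2 of 0.79 ± 0.23 without LPS and 0.92 ± 0.21 with LPS, neither past the limit unpaired. The first passed with the block, without the count filter, or without shNR4A2 control replicate 1 (1.04) or shNR4A3 control replicate 2 (0.96). The second passed with the block, without the count filter, under DESeq2, with all 18 libraries in 1 fit, or without shNR4A2 LPS replicate 1 (1.11).

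CEACAM6, a glycosyl-phosphatidylinositol-anchored adhesion protein found on granulocytes, lies on chromosome 19 (chr19:41750977-41772208, plus strand, GRCh38). Its level was 34.3, 43.7 and 43.5 TPM in shNT control, 14.9, 18.5 and 18.3 in shNR4A2 control and 7.31, 10.3 and 8.35 in shNR4A3 control. The 3 groups did not overlap. The log2 fold changes were -1.23 ± 0.14 in shNR4A2 and -2.18 ± 0.15 in shNR4A3. With LPS the levels were 26.9, 36.8 and 35.2 TPM in shNT, 11, 18.1 and 16.7 in shNR4A2 and 6.54, 9.41 and 6.25 in shNR4A3, again in separate ranges. The log2 fold changes with LPS were -1.06 ± 0.17 and -2.11 ± 0.17. All 4 passed the limit, also under DESeq2, with RLE size factors, without the count filter, with the block, with all 18 libraries in 1 fit and with each library left out. The level in shNR4A2 was higher than in shNR4A3 by a log2 of 0.95 ± 0.17 without LPS and 1.05 ± 0.20 with LPS, both past the limit. The second of these did not pass when any of shNR4A2 LPS replicates 2 and 3 or shNR4A3 LPS replicates 1 and 3 was left out, and over all 6 left-out libraries it ran from 0.95 to 1.21. A read-through gene, AC243967.1, shares 1.96% of the 100-base stretches of the CEACAM6 transcript.

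The direction was the same in every replicate. Within replicate 1, 2 and 3, the ratio of LYZ TPM to the shNT library of the same number was 3.40, 2.61 and 3.51 in shNR4A2 control and 5.24, 4.00 and 4.46 in shNR4A3 control. For CEACAM6 the ratios were 0.435, 0.423 and 0.421, and 0.213, 0.236 and 0.192. For CTSG they were 0.499, 0.687 and 0.533, and 0.338, 0.371 and 0.283.

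**Figure D2:**
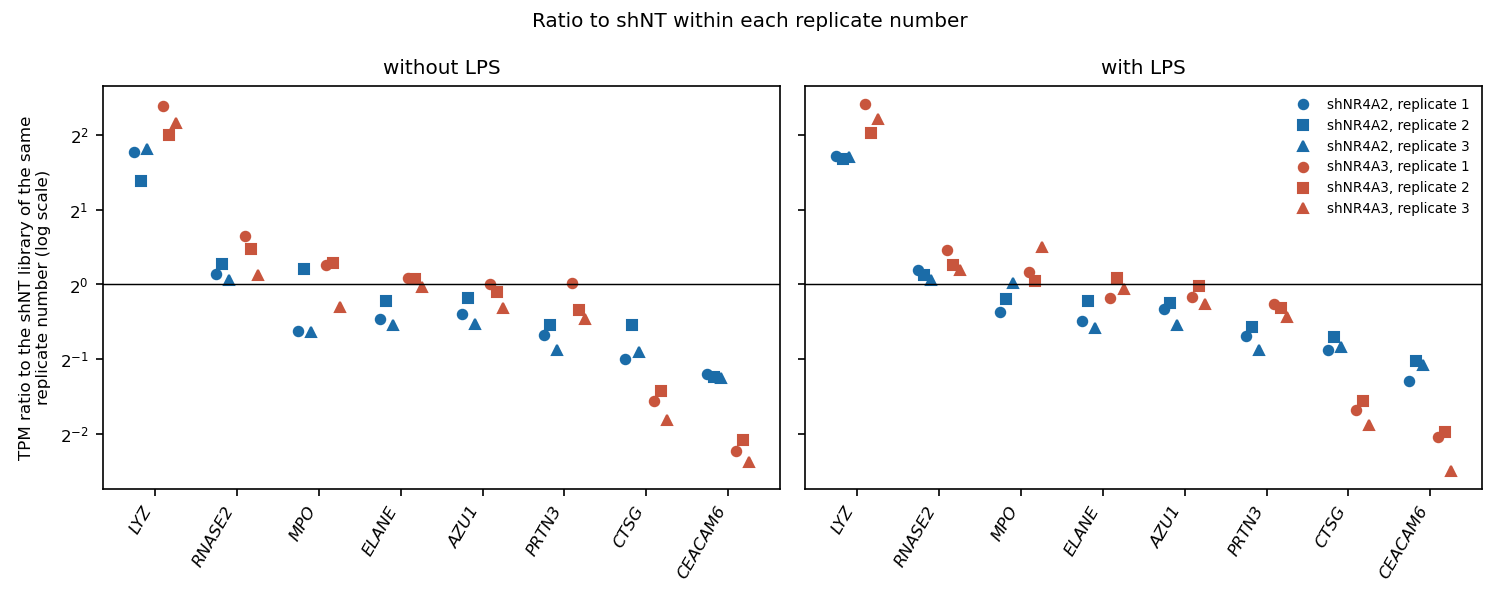
Ratio of TPM in each knockdown library to the shNT library of the same replicate number (vertical axis, log scale, line at 1) for 8 genes, without LPS (left) and with LPS (right), with shapes for the 3 replicates. All LYZ ratios lie between 2.61 and 5.32, and all CTSG and CEACAM6 ratios lie below 1.

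The remaining serprocidin genes encode elastase, proteinase 3 and azurocidin. AZU1, PRTN3 and ELANE lie next to each other on the plus strand of chromosome 19 (chr19:825097-832018, chr19:840960-848175 and chr19:851014-856247, GRCh38), followed by CFD, which encodes complement factor D (chr19:859643-863630). No other gene in the tables lies between AZU1 and CFD. PRTN3 was at 1712, 2895 and 2611 TPM in shNT control and at 1070, 1992 and 1421 in shNR4A2 control, with overlap. With LPS it was at 1734, 2483 and 2529 TPM in shNT and at 1074, 1667 and 1371 in shNR4A2, without overlap. The log2 fold changes were -0.68 ± 0.23 without LPS and -0.67 ± 0.16 with LPS. The second passed the limit, and lost it when any of shNT LPS replicates 2 and 3 or shNR4A2 LPS replicates 1 and 3 was left out, and over all 6 it ran from -0.83 to -0.55. Of the 4 comparisons with shNT, PRTN3 passed the limit in this one only. The first passed with the replicate block or without the count filter. In shNR4A3 the changes were -0.24 ± 0.16 and -0.29 ± 0.15, neither past the limit unpaired, and the second passed with the block or without the count filter.

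ELANE was at 4154 ± 530 TPM (SD, n = 3) in shNT control, 3169 ± 749 in shNR4A2 control and 4286 ± 583 in shNR4A3 control. Its log2 fold change was -0.39 ± 0.16 in shNR4A2 and 0.09 ± 0.11 in shNR4A3. With LPS it was -0.38 ± 0.10 and 0.01 ± 0.09. None of the 4 passed the limit unpaired, and both shNR4A2 values passed with the block or without the count filter, the second also under DESeq2. The 95% interval in shNR4A3 control ran from -0.16 to 0.33. AZU1 was at 3095 ± 426 TPM in shNT control, 2424 ± 596 in shNR4A2 control and 2812 ± 422 in shNR4A3 control. Its log2 fold changes were -0.35 ± 0.17 and -0.31 ± 0.10 in shNR4A2, past the limit with the block or without the count filter (the second also under DESeq2) but not otherwise with all libraries, and -0.10 ± 0.12 and -0.09 ± 0.09 in shNR4A3, not past it. The neighbour CFD had 0.06 ± 0.17 and 0.03 ± 0.13 in shNR4A2 and 0.38 ± 0.14 and 0.26 ± 0.13 in shNR4A3, none past the limit unpaired and both shNR4A3 values past it with the block.

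**Figure D3:**
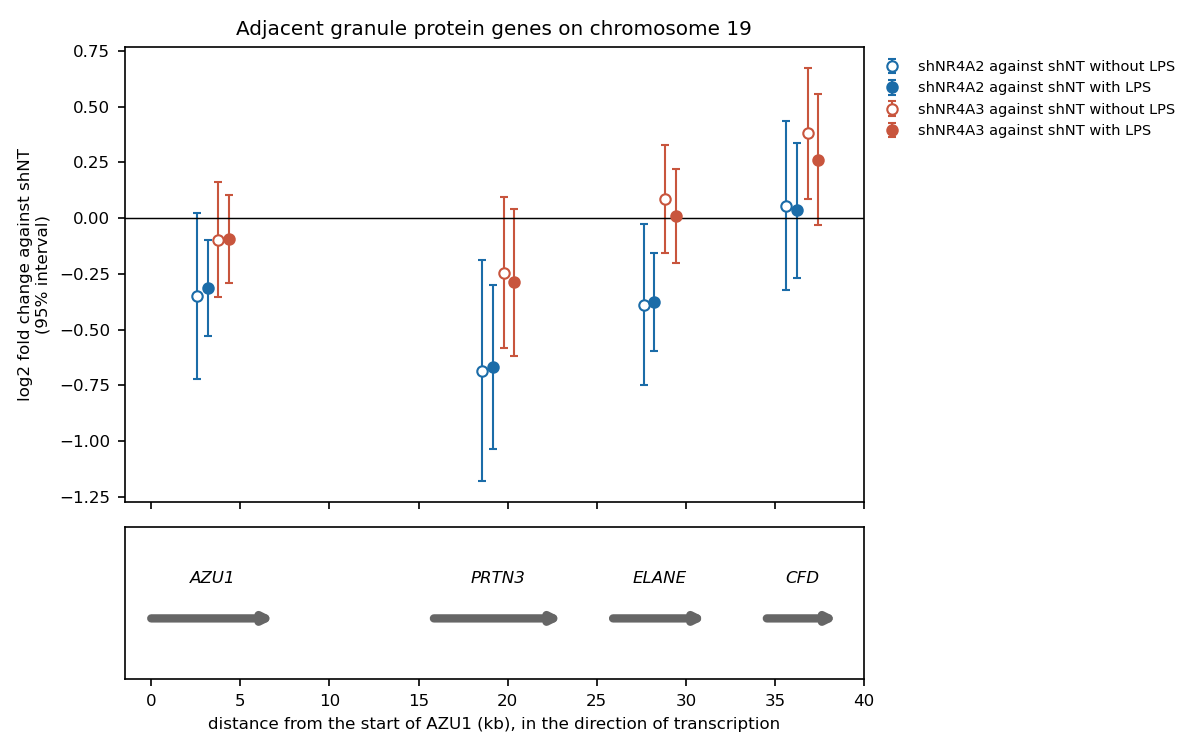
Log2 fold change against shNT with its 95% interval (upper panel) for 4 neighbouring genes placed by distance in kb from the start of AZU1, with the genes drawn to scale (lower panel). In shNR4A2 the 3 granule genes lie between -0.68 and -0.31, while CFD lies at 0.06 and 0.03.

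Summed TPM of the 4 serprocidin genes was 13781 ± 2469 in shNT control, 9492 ± 2594 in shNR4A2 control and 10432 ± 1587 in shNR4A3 control. With LPS the sums were 13330 ± 1925, 9043 ± 1489 and 9665 ± 1407 TPM. The make-up of the sum differed between the lines. CTSG and ELANE were nearly level in shNT control, at 4126 and 4154 TPM, whereas in shNR4A3 control CTSG was at 1360 and ELANE at 4286. Over the 18 libraries, ELANE followed AZU1 with r = 0.93 and PRTN3 with r = 0.87, and CTSG with r = 0.17. Outside the granule genes, RAB11FIP3 (r = 0.92), AL117332.1 (0.88), KCNH2 (0.88) and SPNS3 (0.87) were closest to ELANE. AL117332.1 is annotated as an antisense RNA, and since the strand setting of the counting is not given in the sources used here, its reads may include those of the opposite strand.

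Part of the spread within groups ran with the replicate number. Replicate 1 was the lowest of its 3 libraries for MPO, ELANE, PRTN3, CTSG and RNASE2 in 6 of 6 groups. The deviations from the group means of same-numbered libraries correlated over all genes, with r from 0.216 to 0.244 in the shNR4A2 control comparison. With the replicate number as a block, 7 of the 9 granule genes tested were past the limit there, where 2 were without it, and 23.6% of all genes were with the block. The blocked counts were 4 of 8 in shNR4A3 control, 8 of 9 in shNR4A2 with LPS and 5 of 8 in shNR4A3 with LPS, against 14.8%, 28.1% and 21.8% of all genes. Both shNR4A2 counts include PRG2, which passed the count filter only through shNR4A2, where it is high. Nothing is read from these counts. Leaving out shNR4A2 control replicate 2 alone also brought ELANE (-0.62), PRTN3 (-0.97), AZU1 (-0.59) and CTSG (-1.06) past the limit there, and leaving out shNT control replicate 1 brought PRTN3 (-0.88) and CTSG (-0.96). PRTN3 passed in shNR4A3 control without shNT control replicate 1, at -0.44, and ELANE in shNR4A2 with LPS without shNR4A2 LPS replicate 2, at -0.45.

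The promoters of 6 of the 10 genes (PRTN3, AZU1, CTSG, CEACAM6, CEACAM8 and RNASE2) were in the RefSeq table (GRCh38.p14). The 250 bases before each start were searched on both strands for an NBRE (AAAGGTCA), a C/EBP site (TTGCNNAA), a PU.1 site (GAGGAA), a MYB site (TAACNG) and a RUNX site (TGNGGT), none of which overlapped another. Below are 4 of them, the neighbours AZU1 and PRTN3 and the genes CTSG and CEACAM6 that fell, read 5′ to 3′ on the gene's strand, from 250 bases before the start to the base before the first GENCODE exon in the window. Capitals mark matches. The AZU1 and CEACAM6 windows lie inside the longer GENCODE genes.

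AZU1, chr19:827587-827835, plus strand: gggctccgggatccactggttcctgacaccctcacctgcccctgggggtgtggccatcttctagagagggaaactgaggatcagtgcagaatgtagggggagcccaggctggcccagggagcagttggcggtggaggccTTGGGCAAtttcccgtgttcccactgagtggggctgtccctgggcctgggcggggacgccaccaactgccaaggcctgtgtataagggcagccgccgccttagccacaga

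PRTN3, chr19:840749-840959, plus strand: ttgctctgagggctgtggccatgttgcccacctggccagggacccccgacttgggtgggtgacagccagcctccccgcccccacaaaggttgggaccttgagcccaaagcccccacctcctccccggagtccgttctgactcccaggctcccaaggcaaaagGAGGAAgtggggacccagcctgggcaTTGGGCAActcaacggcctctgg

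CTSG, chr14:24576261-24576500, minus strand: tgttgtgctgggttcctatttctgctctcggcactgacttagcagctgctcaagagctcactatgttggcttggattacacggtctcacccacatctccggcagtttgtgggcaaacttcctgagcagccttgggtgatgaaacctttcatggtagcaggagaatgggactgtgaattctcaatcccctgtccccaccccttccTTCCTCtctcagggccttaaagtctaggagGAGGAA

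CEACAM6, chr19:41755280-41755420, plus strand: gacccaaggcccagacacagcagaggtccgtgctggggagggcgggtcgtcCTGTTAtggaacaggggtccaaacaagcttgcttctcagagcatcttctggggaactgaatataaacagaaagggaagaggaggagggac

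AZU1 and PRTN3 share the C/EBP match TTGGGCAA, 111 and 62 bases before the start. PRTN3 has a PU.1 match 88 bases before the start, and CTSG has 2, at 46 bases (TTCCTC, on the other strand) and 16 bases. CEACAM6 has a MYB match at 199 bases, and a RUNX match at 60 bases that falls in an annotated exon and is not printed. RNASE2 has a C/EBP match at 145 bases and CEACAM8 a RUNX match at 161. None of the 6 windows holds the NBRE letters, which are found in 1.05% of 35116 promoter windows of this length. The C/EBP letters are in 9.05% of them, PU.1 in 23.6%, MYB in 17.6% and RUNX in 37.7%. A match describes the letters only.

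MPO, at 3.89, 5.08 and 5.83 TPM in shNT control, stayed in the same range in all groups, from 2.41 to 6.22 TPM. Its log2 fold changes against shNT ran from -0.29 ± 0.28 to 0.31 ± 0.22 and none passed the limit. The widest 95% interval, in shNR4A2 control, ran from -0.91 to 0.33. MPO had 42 to 120 counts per library over all groups.

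The eosinophil granule genes differed from each other. RNASE2, the eosinophil-derived neurotoxin, a ribonuclease also made by monocytes, was at 877, 1135 and 1309 TPM in shNT control, at 964, 1373 and 1359 in shNR4A2 control and at 1379, 1582 and 1435 in shNR4A3 control. The shNR4A3 libraries lay above all shNT libraries. The log2 fold change of 0.45 ± 0.12 passed the limit, but not with all 18 libraries in 1 fit, nor when any library except shNT control replicate 3 was left out, and over all 6 it ran from 0.31 to 0.55. With LPS it was 0.35 ± 0.12, past the limit only with the replicate block or without the count filter. In shNR4A2 the changes were 0.16 ± 0.16 and 0.17 ± 0.13, of which the second passed with the block.

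PRG2, which encodes eosinophil major basic protein, rested on few counts. It passed the count filter only in comparisons that include shNR4A2, where it is high, so the filter favoured a difference in that direction and the calls below are given as a description. The 3 libraries had 4, 3 and 11 counts in shNT control, 13, 24 and 41 in shNR4A2 control and 4, 3 and 0 in shNR4A3 control. With LPS they had 5, 8 and 23 counts in shNT, 23, 16 and 37 in shNR4A2 and 1, 0 and 2 in shNR4A3. Pooled per counted read, shNR4A2 was 3.86-fold above shNT without LPS (exact 95% interval 2.29 to 6.85, counting error only) and 2.30-fold with LPS (1.53 to 3.53). The log2 fold changes against shNT, 1.93 ± 0.55 and 1.24 ± 0.52, did not pass the limit unpaired and did with the block or without the count filter, the first also under DESeq2 or without shNT control replicate 3 or shNR4A2 control replicate 1 (2.65 and 2.29). Set against shNR4A3, shNR4A2 was 8.97-fold higher without LPS (4.15 to 23.0) and 25.0-fold higher with LPS (8.25 to 124), on 7 and 3 counts in shNR4A3. The log2 differences of 3.08 ± 0.67 and 4.47 ± 0.65 passed the limit, and did not without shNR4A3 replicate 1 or 3 of that state, in 2 of the 4 left-out fits that gave a value without LPS and 2 of 6 with LPS. Between shNT and shNR4A3, for which PRG2 did not pass the filter, shNT was 2.32-fold higher without LPS (0.926 to 6.58) and 10.9-fold higher with LPS (3.43 to 55.1). PRG2 was lower in shNR4A3 than in shNT in 3 of 3 same-numbered pairs with LPS and in 1 of 3 without. The read-through gene AP000781.2 shares 52.4% of the 100-base stretches of the PRG2 transcript, so the counts could be split between them. None of the 6 eosinophil markers, among them CCR3, SIGLEC8 and EPX, reached 1 TPM in any library.

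**Figure D4:**
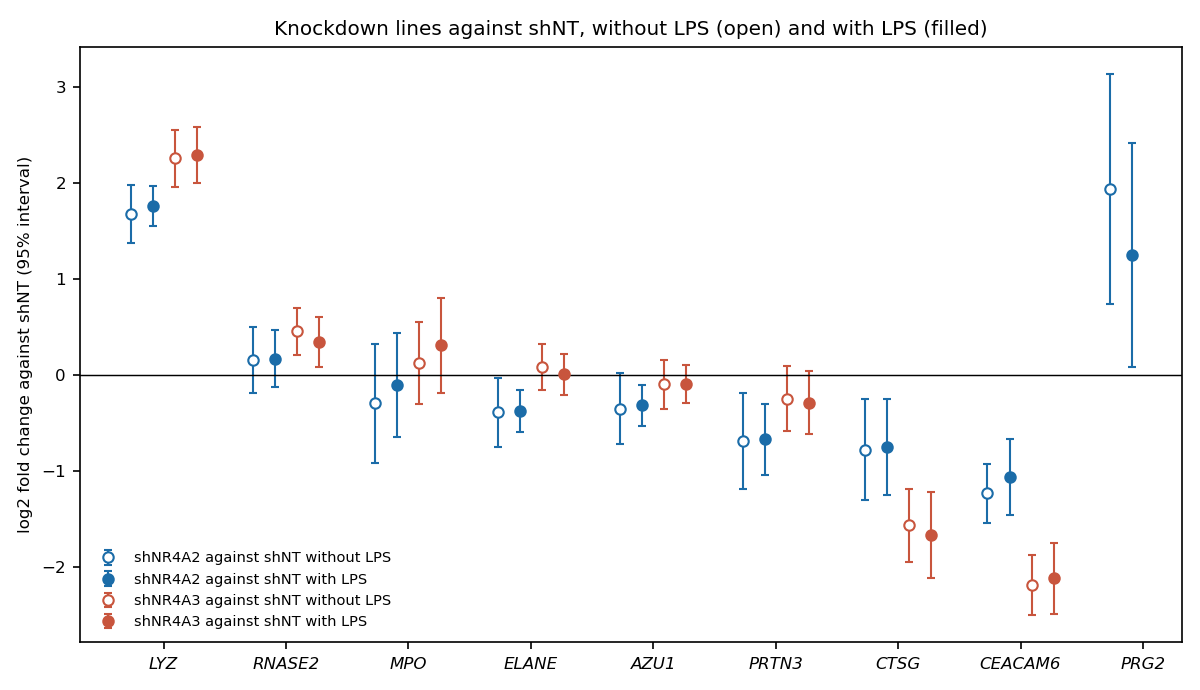
Log2 fold change against shNT with its 95% interval (vertical axis) for the 9 genes that passed the count filter, in shNR4A2 (blue) and shNR4A3 (red), without LPS (open) and with LPS (filled). LYZ lies between 1.68 and 2.29 and CEACAM6 between -2.18 and -1.06; PRG2 has no shNR4A3 value because it failed the filter there.

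Counted over the whole set, 2 of the 9 granule genes tested were past the limit in shNR4A2 control, 1 higher and 1 lower, where 6.45% of all 15800 genes tested were, 3.63% higher and 2.82% lower. In shNR4A3 control 4 of 8 were, 2 higher and 2 lower, against 7.23% of 15322 genes, 3.91% higher and 3.32% lower. With LPS 3 of 9 were in shNR4A2, 1 higher and 2 lower, against 6.96% of 15590, 4.31% higher and 2.65% lower. In shNR4A3 with LPS 3 of 8 were, 1 higher and 2 lower, against 6.45% of 15578, 3.99% higher and 2.46% lower. Since the genes were chosen with such results known, nothing is read from these shares. In the direct comparison of shNR4A2 with shNR4A3, unpaired, 2 of 9 were past the limit in each state, CEACAM6 and PRG2, both higher in shNR4A2 (PRG2 having passed the filter through shNR4A2), against 3.08% of all genes without LPS (1.94% higher, 1.14% lower) and 2.33% with LPS (1.27% higher, 1.06% lower). Same-numbered libraries deviated together in this comparison, and with the replicate block 8 of 9 were past the limit in each state, against 11.6% and 23.6% of all genes. With the block CEACAM6, PRG2 and CTSG were higher in shNR4A2, and LYZ, ELANE, PRTN3, AZU1 and RNASE2 were lower. The blocked log2 differences without and with LPS were -0.50 and -0.38 for ELANE, -0.48 and -0.38 for PRTN3, -0.28 and -0.22 for AZU1 and -0.31 and -0.18 for RNASE2. Each of these 4 genes was lower in shNR4A2 in 3 of 3 same-numbered pairs in both states. Without the block their differences were -0.47 ± 0.15 and -0.38 ± 0.11, -0.44 ± 0.18 and -0.38 ± 0.14, -0.25 ± 0.16 and -0.22 ± 0.09, and -0.29 ± 0.13 and -0.17 ± 0.10, none past the limit by edgeR with the count filter. ELANE and PRTN3 passed unpaired without the count filter in both states, and ELANE with LPS also passed under DESeq2. Without shNR4A2 control replicate 2, ELANE (-0.70), PRTN3 (-0.72) and AZU1 (-0.49) passed unpaired. The median log2 fold change of those tested was -0.35 and -0.31 in shNR4A2 and -0.01 and -0.04 in shNR4A3, beside -0.00 to -0.01 over all genes. The comparisons with shNT share the shNT libraries.

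No granule gene passed the test for a difference of its knockdown effect between the states. The difference of the LYZ effect between the states was 0.08 ± 0.17 in shNR4A2 and 0.03 ± 0.20 in shNR4A3, with 95% intervals from -0.29 to 0.45 and from -0.40 to 0.47. For CTSG the differences were 0.03 ± 0.37 and -0.11 ± 0.30, and for CEACAM6 0.17 ± 0.23 and 0.07 ± 0.23. No gene at all passed the interaction test by edgeR, of 16674 and 16428 tested, while 365 (2.19%) and 824 (5.02%) had an unadjusted p under 0.05, and none of those was a granule gene. DESeq2 called none of the granule genes either. A test that called no gene at all does not show that the effects were equal in both states.

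No granule gene was past the limit with LPS for 2 h. None of the 8 granule genes tested was past the limit in shNT by edgeR or DESeq2, although 24.9% of all 15711 genes were (11.6% higher, 13.3% lower), and 1 (ELANE) had an unadjusted p under 0.05, as 35.9% of all genes did. In shNR4A2 none of 9 was by either tool, against 19.3% of 15772 genes (9.23% higher, 10.1% lower), and in shNR4A3 none of 8, against 28.1% of 15342 (13.1% higher, 15% lower). None had an unadjusted p under 0.05 there, against 31.8% and 39.4% of all genes. The log2 fold change of ELANE with LPS was 0.22 ± 0.10 in shNT, 0.23 ± 0.16 in shNR4A2 and 0.15 ± 0.10 in shNR4A3. ELANE passed the limit in shNT without control replicate 2, at 0.35, and in shNR4A2 without control replicate 2, at 0.45, as did AZU1 there, at 0.39. For LYZ the values were -0.08 ± 0.08, -0.00 ± 0.15 and -0.04 ± 0.17. LYZ TPM did not overlap between shNT control and shNT LPS, but TPM is a share of a total, and with LPS the median gene shifted by -0.23, -0.28 and -0.24 in log2 TPM in the 3 lines, against -0.01 to -0.02 after TMM normalization, which the fold changes use.

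Of 12 genes for transcription factors that act on granule genes, 5 fell with LPS in shNT and 2 rose, where 13.3% of all genes fell and 11.6% rose. CEBPA, CEBPE, MYB and RUNX1, and CTSC below, are named for their LPS values after these were seen. CEBPA, the C/EBP factor needed to enter the granulocyte pathway, fell by 2.12 ± 0.18 in shNT (edgeR adjusted p = 7.31e-07), from 1102 ± 165 to 219 ± 63.6 TPM. GFI1, a repressor of the monocyte programme in granulocyte precursors, fell by 2.32 ± 0.15 (edgeR adjusted p = 4.94e-08), from 404 ± 36.3 to 70.0 ± 21.1 TPM. MYB, a factor of dividing precursors, fell by 1.70 ± 0.11 (edgeR adjusted p = 4.67e-08) and CEBPE, which drives the later specific granule genes, by 1.63 ± 0.28 (adjusted p = 0.000610). RUNX1 fell by 0.30 ± 0.09 (edgeR adjusted p = 0.0232), a call that 4 of 6 left-out libraries ended, with adjusted p = 0.122 and a log2 of -0.23 without shNT LPS replicate 1, as did all 18 libraries in 1 fit. SPI1, which encodes PU.1, rose by 0.61 ± 0.10 (edgeR adjusted p = 0.000675) and CEBPD by 0.55 ± 0.11 (adjusted p = 0.00203). CEBPA, CEBPE, MYB, GFI1, SPI1 and CEBPD changed in the same direction in shNR4A2 and shNR4A3, also past the limit under DESeq2, with RLE size factors, without the count filter, with the block, with all 18 libraries in 1 fit and with each library left out.

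**Figure D5:**
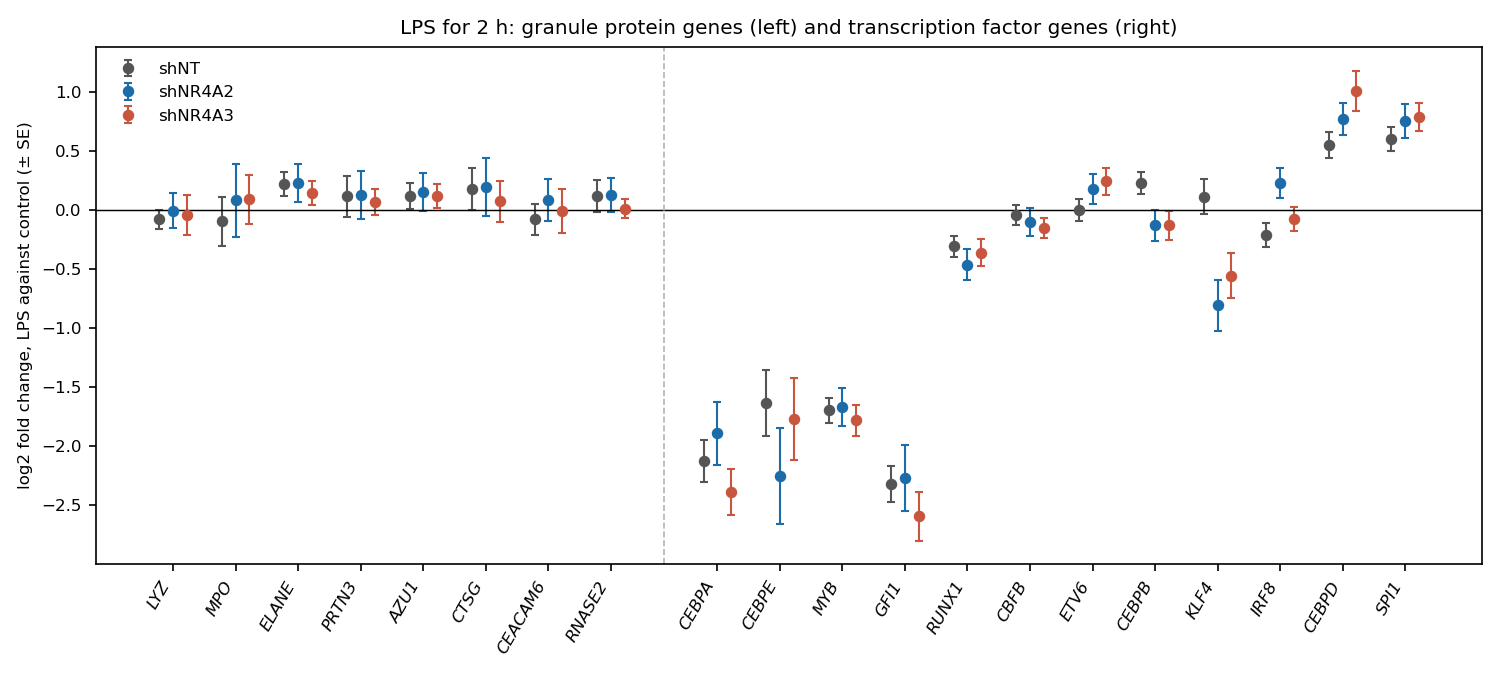
Log2 fold change with LPS against control, ± SE (vertical axis), in shNT, shNR4A2 and shNR4A3 for 8 granule genes (left of the dashed line) and 12 transcription factor genes (right). The granule genes lie between -0.09 and 0.23, and CEBPA, CEBPE, MYB and GFI1 lie between -2.59 and -1.63.

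Against shNT, 1 of the 12 rose and 1 fell in shNR4A2 control, 3 rose and 1 fell in shNR4A3 control, 1 rose in shNR4A2 with LPS and 3 rose in shNR4A3 with LPS. Of all genes, 6.45%, 7.23%, 6.96% and 6.45% were past the limit in either direction in these 4 comparisons. With the block 2 rose and 5 fell in shNR4A2 control, 3 rose and 5 fell in shNR4A2 with LPS and 4 rose and 3 fell in shNR4A3 with LPS, beside 23.6%, 28.1% and 21.8% of all genes. KLF4, a monocyte factor, rose without LPS by 0.87 ± 0.16 in shNR4A2 (edgeR adjusted p = 0.00668) and 0.92 ± 0.15 in shNR4A3 (adjusted p = 0.00181). IRF8, which directs precursors to the monocyte fate, rose by 0.65 ± 0.11 in shNR4A3 control (edgeR adjusted p = 0.00267), from 302 ± 23.4 TPM in shNT to 462 ± 79.0. With LPS it rose by 0.62 ± 0.10 in shNR4A2 (edgeR adjusted p = 0.00885) and 0.79 ± 0.09 in shNR4A3 (adjusted p = 0.00119). GFI1 fell in both lines without LPS, by 0.40 ± 0.10 (edgeR adjusted p = 0.0415) and 0.41 ± 0.10 (adjusted p = 0.0214), calls that ended when single libraries were left out, with adjusted p up to 0.167 (log2 of -0.33, without shNT control replicate 2) and 0.105 (-0.34, without shNR4A3 control replicate 3), and that also ended with all 18 libraries in 1 fit. With LPS it was at 70.0 TPM in shNT, 54.0 in shNR4A2 and 42.2 in shNR4A3. With the block GFI1 was lower in both lines in both states. SPI1 rose in shNR4A3 by 0.37 ± 0.10 without LPS (edgeR adjusted p = 0.0411) and 0.55 ± 0.12 with LPS (adjusted p = 0.0297), and CEBPD by 0.74 ± 0.17 with LPS (adjusted p = 0.0300). These 3 calls ended when single libraries were left out, 6, 4 and 5 of 6, with adjusted p up to 0.164, 0.123 and 0.120, the first also with all 18 libraries in 1 fit. With the block SPI1 was also higher in shNR4A2 in both states, and CEBPD in shNR4A2 with LPS.

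Around the granule genes, 103 genes in 9 lists cover partners, inhibitors, other granules, transport and lysosomes. Of 69 tested, 8 rose and 4 fell in shNR4A2 control. In shNR4A3 control 12 of 67 rose and 4 fell. With LPS, 9 of 70 rose and 2 fell in shNR4A2, and 14 of 69 rose and 2 fell in shNR4A3. Of all genes, 3.63% rose and 2.82% fell, 3.91% and 3.32%, 4.31% and 2.65%, and 3.99% and 2.46% in the same 4 comparisons. With the replicate block 14 rose and 12 fell in shNR4A2 control, 21 rose and 11 fell in shNR4A2 with LPS and 23 rose and 8 fell in shNR4A3 with LPS, where 23.6%, 28.1% and 21.8% of all genes were past the limit. The lists were written with earlier results known, and their median log2 fold changes were 0.03, 0.05, 0.04 and 0.10, beside -0.00 to -0.01 over all genes.

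Among azurophil partners, SRGN, the serglycin core protein that holds the proteases in the granule, was the most abundant list gene. It fell from 10597 ± 74.5 TPM in shNT control to 6832 ± 221 in shNR4A2 (log2 of -0.63 ± 0.09, edgeR adjusted p = 0.00158) and 7003 ± 397 in shNR4A3 (-0.55 ± 0.08, adjusted p = 0.00135). With LPS it fell in shNR4A3 by 0.36 ± 0.08 (edgeR adjusted p = 0.0323), a call that 4 of 6 left-out libraries ended, up to adjusted p = 0.153 at -0.32 without shNR4A3 LPS replicate 3. In shNR4A2 with LPS it was at 9327 ± 281 TPM against 11976 ± 727 in shNT. This log2 of -0.30 ± 0.09 did not pass unpaired by edgeR (adjusted p = 0.0755) and passed with the block. By DESeq2 unpaired, 1 of the 6 azurophil partners tested there was past the limit, against 0 by edgeR. The share of all genes by DESeq2 is not given here, so nothing is read from this count. SRGN rose with LPS by 0.39 ± 0.08 in shNT (edgeR adjusted p = 0.00164). BPI, DEFA1, DEFA1B and DEFA3, which neutrophil precursors make, stayed below 1 TPM in every library.

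Among protease regulators, 2 inhibitors rose in all 4 comparisons. SERPINB8 rose by 0.69 ± 0.10 in shNR4A2 control (edgeR adjusted p = 0.00256) and 0.93 ± 0.09 in shNR4A3 control (adjusted p = 3.24e-05), and by 0.75 ± 0.11 and 0.99 ± 0.09 with LPS. CST3, the cathepsin inhibitor cystatin C, rose by 0.63 ± 0.14 (edgeR adjusted p = 0.0234) and 0.58 ± 0.11 (adjusted p = 0.00461) without LPS and by 0.65 ± 0.11 and 0.51 ± 0.09 with LPS. Its calls in shNR4A2 control and in both LPS comparisons ended without single libraries, with adjusted p up to 0.103 (log2 of 0.55, without shNT control replicate 3). CTSC, which activates the serprocidins, passed the limit in no knockdown comparison unpaired by edgeR, and fell in shNR4A2 in both states with the block. With LPS it rose in shNT by 1.11 ± 0.08 (edgeR adjusted p = 1.30e-07), from 58.2 ± 4.51 to 107 ± 1.45 TPM.

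Of the lysosomal cathepsins and hydrolases, 15 were tested without LPS, where 3 rose and 1 fell in shNR4A2 control and 6 rose and 1 fell in shNR4A3 control, beside 3.63% and 2.82% of all genes and 3.91% and 3.32%. Of 16 tested with LPS, 4 rose and 1 fell in shNR4A2 and 7 rose and 1 fell in shNR4A3, beside 4.31% and 2.65% of all genes and 3.99% and 2.46%. With the block 6 rose and 1 fell in shNR4A2 control, 8 rose and 1 fell in shNR4A2 with LPS and 7 rose and 1 fell in shNR4A3 with LPS, beside 23.6%, 28.1% and 21.8% of all genes past the limit with the block. GAA, acid α-glucosidase, rose in all 4 comparisons, from 88.6 ± 6.84 TPM in shNT control to 146 ± 16.9 in shNR4A2 (log2 of 0.72 ± 0.12, edgeR adjusted p = 0.00523) and 150 ± 10.3 in shNR4A3 (0.80 ± 0.10, adjusted p = 0.000270). CTSB, cathepsin B, rose by 0.65 ± 0.16 in shNR4A2 and 0.85 ± 0.15 in shNR4A3 without LPS and by 0.77 ± 0.18 and 0.86 ± 0.16 with LPS. The CTSB calls in shNR4A2 control, shNR4A2 LPS and shNR4A3 LPS ended without single libraries, with adjusted p up to 0.137. CTSZ rose in shNR4A3, by 0.95 ± 0.10 (edgeR adjusted p = 6.20e-05) and 0.85 ± 0.10 with LPS (adjusted p = 0.00119), and LAMP1 by 0.47 ± 0.09 and 0.46 ± 0.08. CTSA rose in shNR4A3 by 0.33 ± 0.09 and 0.47 ± 0.08 and in shNR4A2 with LPS by 0.44 ± 0.10, and LGMN in shNR4A3 with LPS by 1.49 ± 0.34, from 0.437 to 1.19 TPM. CTSK, cathepsin K, fell in all 4, by 0.71 ± 0.13 and 0.90 ± 0.14 without LPS and by 0.58 ± 0.15 and 0.94 ± 0.17 with LPS. Leaving out single libraries ended the calls of CTSA in shNR4A3 control (adjusted p up to 0.145, and also with all 18 libraries in 1 fit) and shNR4A2 LPS (0.139), of CTSK in shNR4A2 LPS (0.142), of LGMN (0.130) and of LAMP1 with LPS (0.0550). With the block CTSZ and LGMN were also higher in shNR4A2 in both states, and CTSA in shNR4A2 control.

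Of 20 genes of specific and gelatinase granules, which form later than azurophil granules, 8 were below 1 TPM in every library, among them LTF, LCN2 and MMP8. CHI3L1 was the most abundant in the control groups and in shNT LPS, at 2089 TPM in shNT control. PTX3 was above it in shNR4A2 LPS (1918 against 1893 TPM) and in shNR4A3 LPS (1520 against 1423 TPM). CHI3L1 was not past the limit in any knockdown comparison unpaired by edgeR, while with the block it fell in shNR4A3 in both states. TCN1, haptocorrin, rose in shNR4A2 by 1.14 ± 0.18 (edgeR adjusted p = 0.00341) and 1.51 ± 0.21 with LPS (adjusted p = 0.00438). CYBB, the NADPH oxidase subunit gp91phox, rose in shNR4A3 by 1.00 ± 0.24 (edgeR adjusted p = 0.0220) and 1.45 ± 0.29 with LPS (adjusted p = 0.0171), calls that ended without 4 and 2 of the 6 libraries, up to adjusted p = 0.104 and 0.0751, the first also under DESeq2 and with all 18 libraries in 1 fit. PTX3, pentraxin 3, fell in shNR4A3 control by 0.83 ± 0.17 (edgeR adjusted p = 0.00901), a call that ended with all 18 libraries in 1 fit, and MMP9 in shNR4A2 with LPS by 1.19 ± 0.29 (adjusted p = 0.0426), lost without any of 5 libraries, up to adjusted p = 0.121. With the block CYBB was also higher in shNR4A2 and TCN1 in shNR4A3, each in both states, and MMP9 was lower in both lines without LPS. PTX3 was then higher in shNR4A2 with LPS, and in shNR4A3 with LPS CYBA was higher and ORM1 lower. PTX3 had the largest LPS change of the list genes in shNT, 6.09 ± 0.21, from 26.7 ± 5.72 to 1555 ± 410 TPM (edgeR adjusted p = 4.15e-11).

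Of the transport genes, RAB27A, which docks secretory granules, rose in shNR4A2 by 0.51 ± 0.10 (edgeR adjusted p = 0.0103) and 0.52 ± 0.10 with LPS (adjusted p = 0.0145). VPS13B fell in shNR4A2 control by 0.52 ± 0.12 (edgeR adjusted p = 0.0221). STX11, a membrane fusion protein, rose in shNR4A3 with LPS by 0.65 ± 0.14 (edgeR adjusted p = 0.0212), and with LPS in shNT by 3.40 ± 0.12 (adjusted p = 7.13e-11). Each of these knockdown calls ended without at least 1 library, with adjusted p up to 0.0592 and 0.0704 for RAB27A, 0.0910 for VPS13B (also lost with all 18 libraries in 1 fit) and 0.0889 for STX11. With the block STX11 was also higher and VPS13B lower in shNR4A2 with LPS.

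Relatives of the granule genes were tested beside them. Of the eosinophil granule and RNase A family list, 3 of 8 genes were tested in each knockdown comparison, and none was past the limit by edgeR or DESeq2, with 0, 2, 2 and 1 at an unadjusted p under 0.05 in shNR4A2 control, shNR4A3 control, shNR4A2 LPS and shNR4A3 LPS, as 21.3%, 20.9%, 23.2% and 23% of all genes were. With the block RNASE3 and RNASE6 were higher in shNR4A3 control and RNASE1 in shNR4A3 with LPS. Of 7 other CEACAM genes 3 were tested, and none was past the limit by either tool or with the block, with 0, 0, 0 and 1 at an unadjusted p under 0.05, beside the same shares of all genes.

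Eosinophil markers summed to 1.38 ± 0.189 TPM in shNT control, and erythroid and megakaryocyte markers to 2.29 ± 0.665 TPM. Among neutrophil markers FCGR3B and ALPL stayed below 1 TPM in all libraries, and S100A9, shared with monocytes, was the most abundant. It was at 86.3 ± 26.1 TPM in shNT control, 108 ± 31.1 in shNR4A2 control and 120 ± 34.3 in shNR4A3 control, and at 65.4 ± 14.1, 97.7 ± 33.8 and 106 ± 49.6 TPM with LPS. None of the 4 neutrophil markers tested was past the limit unpaired by edgeR or DESeq2 in the knockdown comparisons, with 1, 2, 2 and 2 at an unadjusted p under 0.05, as 21.3%, 20.9%, 23.2% and 23% of all genes were. With the block S100A9 was higher in all 4 comparisons, S100A8 was higher in shNR4A3 in both states and CSF3R, the G-CSF receptor gene, was lower in shNR4A2 in both states. KIT, a receptor of precursors and mast cells, was the 1 gene of the mast cell list above 1 TPM and fell in shNR4A2 control from 13.2 ± 1.01 to 6.45 ± 1.18 TPM (log2 of -1.03 ± 0.15, edgeR adjusted p = 0.00202). In shNR4A2 with LPS the difference was -1.05 ± 0.30, which passed under DESeq2 and with the block but not unpaired by edgeR (adjusted p = 0.0677). In shNR4A3 it was -0.43 ± 0.13 without LPS and -0.64 ± 0.22 with LPS, neither past the limit unpaired by edgeR or DESeq2 and both past it with the block. NKG7 made up most of the lymphoid sum of 61.1 ± 2.19 TPM, and CD3D and MS4A1 stayed below 1 TPM. Epithelial and stromal markers summed to 2.46 ± 0.435 TPM. All libraries came from THP-1 cultures, and whether other cells contributed to the values above was not tested.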

How the data were processed

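RNA from 18 THP-1 cultures was sequenced as polyadenylated RNA (6 groups of 3). Per the labels, the authors trimmed reads with Trimmomatic 0.36, aligned them with STAR 2.5.2b to GRCh38 and deposited raw counts per Ensembl gene made with featureCounts of Subread 1.5.2. The strand setting and annotation release are not given in the sources used here. Symbols came from GENCODE 29, in which 54749 of 57500 genes had the same position. Reads shared by overlapping or near-identical genes could affect a gene's count.

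TPM was computed from the deposited counts and exon lengths (pandas 2.3.3, Python 3.11.15). Each comparison was fitted over all genes with the edgeR 4.0.16 quasi-likelihood test (R 4.3.3, filterByExpr defaults, TMM) on its own libraries, without a block, with Benjamini-Hochberg adjustment and a limit of 0.05. The fits were also run on simulated data, whose outcome is not given here, so nothing is read from it. DESeq2 1.42.0, RLE factors, no count filter, a replicate block, all 18 libraries in 1 fit, a 2-fold limit, CPM after TMM and each library left out were the alternatives. Intervals are at 95%, and those of pooled counts cover counting error only.

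The granule genes and the 9 gene lists and 7 marker lists were chosen with earlier results of these data known, so granule genes are given without p-values. All granule genes are named. List genes are named if past the limit in a knockdown comparison, if among the 3 largest LPS changes in shNT, or if the most abundant, with exceptions stated (some list and marker genes that enter the counts are not reported here by name, and markers were named after their values were seen). The 5 genes with the highest r to LYZ and to ELANE are named, among genes with a mean log2 CPM of at least 1 and an SD of at least 0.3. No 2 libraries had identical counts. Per the study the replicates are independent experiments. Deviations of same-numbered libraries from their group means correlated above 0.1 in every pair (lowest r per comparison 0.135 to 0.279), except in shNR4A3 against shNT without LPS (0.0769), LPS in shNT (0.00789) and the interactions, so blocked counts, and blocked calls of granule genes, are given beside those they change.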

Additional observations from a re-analysis of the deposited data

Results flagged for a closer look

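Of the 9 granule genes tested, 2 differed in each state by the direct unpaired edgeR test of shNR4A2 against shNR4A3. Of all genes 3.08% did without LPS and 2.33% with LPS. With the replicate block 8 did in each state, of which 5 were lower in shNR4A2, against 11.6% and 23.6% of all genes. CEACAM6 was higher in shNR4A2 by a log2 of 0.95 without LPS and 1.05 with LPS, in 3 of 3 replicates in each state. With 1 library left out, its call held in 6 of 6 fits without LPS and 2 of 6 with LPS. PRG2, which passed the count filter only through shNR4A2, where it is high, was higher by 3.08 and 4.47, on totals of 78 and 7 counts without LPS and 76 and 3 counts with LPS. Its call held in 2 of the 4 left-out fits that gave a value without LPS and 4 of 6 with LPS. No cause was tested.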

How the results depend on the processing

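No fold change of a called granule, list or marker gene changed sign under the alternatives run. In shNR4A3 against shNT without LPS and LPS in shNT, where same-numbered libraries did not deviate together in every pair, the replicate block is an alternative only. The number of granule genes past the limit moved by over 1.5 times as follows. Without the count filter it was 7 in shNR4A2 control (2 as reported), 7 in shNR4A2 LPS (3), 6 in shNR4A3 LPS (3), and 6 and 6 in shNR4A2 against shNR4A3 without and with LPS (2 and 2). With the replicate block it was 7, 8 and 5 in shNR4A2 control, shNR4A2 LPS and shNR4A3 LPS, beside 23.6%, 28.1% and 21.8% of all genes. Between the lines it was 8 and 8, beside 11.6% and 23.6% of all genes. PRG2, which passed the count filter only through shNR4A2, is in the blocked counts of shNR4A2 and in those between the lines. Shares of all genes under the other settings are not given here, so nothing about the granule genes is read from these moves. DESeq2 gave 6 in shNR4A2 LPS and 5 between the lines with LPS, all 18 libraries in 1 fit gave 4 there, and a 2-fold limit gave 1 between the lines without LPS. Leaving out 1 library gave 2 to 6, 3 to 4, 2 to 4 and 3 in shNR4A2 control, shNR4A3 control, shNR4A2 LPS and shNR4A3 LPS, 0 to 1, 0 to 2 and 0 for LPS in shNT, shNR4A2 and shNR4A3, 1 to 4 and 0 to 3 between the lines, and 0 for both interactions.

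For list genes past the limit, in the order shNR4A2 control, shNR4A3 control, shNR4A2 LPS and shNR4A3 LPS, the reported 12, 16, 11 and 16 became 26, 25, 32 and 31 with the replicate block and 1, 1, 2 and 2 with a 2-fold limit. In that order 23.6%, 14.8%, 28.1% and 21.8% of all genes were past the limit with the block. The other counts are given without such shares, and nothing is read from them. Without the count filter the reported list gene counts became 25, 19 and 25 in the last 3. For LPS in shNT, shNR4A2 and shNR4A3 the reported 17, 19 and 20 became 9, 8 and 11 with a 2-fold limit, and 33 with the block in shNR4A3. Leaving out 1 library gave 7 to 13, 13 to 15, 6 to 14 and 7 to 23, and 15 to 19, 14 to 20 and 14 to 23 for LPS. The LYZ ratio of group means in shNR4A2 against shNT with LPS was 3.25 in TPM and 3.41 in CPM after TMM. The causes were not tested. CEACAM8 and PRG2 are limited by depth, with floors of 3 counts at up to 0.266 and 0.369 TPM.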
